A study of Homo sapiens with 18 samples.

Results

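Gene expression after 8 h of luteinizing hormone (LH) was compared with gene expression without LH in SKOV-3 cells, an established line from a human ovarian carcinoma, that had been transfected to express the LH receptor (LHR). The comparison used 6 of the 18 arrays of the series, chosen by their labels. In 3 of them (LH8) the LHR+ cells had been incubated with LH at 50 ng/ml for 8 h, and in the other 3 (LHR+) the same transfected cells had received no LH. The parent line lacks the receptor, and both groups therefore carry the transfected gene. Whether the transfected line is 1 clone is not given in the sources used here. No vehicle or time in culture of its own is given for the LHR+ arrays, so 8 h of LH and 8 h more in culture cannot be told apart. The remaining arrays, 3 each of LHR- cells and of LHR+ cells after 1, 4 and 20 h of LH (LH1, LH4 and LH20), entered the estimate of the spread and are given beside the 8 h values where timing is described. The measured quantity was the intensity of 54613 probe sets of the Affymetrix U133 Plus2 array, on a linear scale, and fold changes were taken on log2(intensity + 1), a scale that understates the change of dim probe sets.

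LHR is a G protein-coupled receptor whose main partner is Gs. Gs stimulates adenylyl cyclase, cyclic AMP (cAMP) activates protein kinase A, and this kinase phosphorylates CREB, a transcription factor that binds cAMP response elements near its target genes. In the ovary the LH surge acts in this way on granulosa and theca cells, where it drives ovulation and the change to a steroid-secreting luteal cell. Such responses begin with short-lived transcription factor messages and are followed by genes of signaling, matrix and cell cycle exit.

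The 6 arrays were alike in overall brightness. Their median intensity was 46.7 to 51 in LH8 and 47.8 to 53.1 in LHR+. The ratio of 3' to 5' signal on the GAPDH control probe sets was 1.57 to 1.71 in LH8 and 1.52 to 1.63 in LHR+. On the ACTB control probe sets the ratio was higher, with 7.68 to 8.59 in LH8 and 7.84 to 10.4 in LHR+. Over all probe sets the nearest array of LH8 replicate 1 by Euclidean distance was LHR+ replicate 2 and that of LH8 replicate 2 was LH4 replicate 1. All 8 markers of SKOV-3 epithelium were brighter than the median probe set, whose intensity was 48.8. Their summed intensity was 31300 to 32820 in LH8 arrays and 24400 to 26600 in LHR+ arrays, without overlap and without a called member, and whether this shift has a part in the results below was not tested. None of the 6 leukocyte, 7 endothelial and 7 granulosa or theca cell markers measured was brighter than the median probe set. Their summed intensities were 35.8 to 67.2 in LH8 and 15.4 to 40.6 in LHR+ for leukocytes, 43.3 to 100.1 in LH8 and 27.3 to 75.8 in LHR+ for endothelium, and 72.1 to 103 in LH8 and 73.9 to 98.6 in LHR+ for granulosa and theca cells, with overlap in each. Of the 7 markers of fibroblasts and stroma 4 were brighter than the median probe set. The 7 summed to 14800 to 16500 in LH8 and 12500 to 13600 in LHR+, without overlap. Nearly all of the sum came from COL1A1, which averaged 15100 in LH8 and 12600 in LHR+, and LUM was the member called higher. LHCGR, the gene of the receptor, was at the floor with 2.74, 1.30 and 2.46 in LH8 arrays and 1.57, 0.344 and 1.07 in LHR+ arrays. Whether its probe set lies in the transfected sequence is not known here, so it does not check the labels. GAPDH and ACTB, used as housekeeping genes, differed by 0.19 ± 0.12 and 0.21 ± 0.12 on the log2 scale (SE) and were not called. For both, every LH8 array was nonetheless above every LHR+ array.

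The call rule required in limma a p under 0.05 and a Benjamini-Hochberg adjusted p under 0.1, together with a change of 2-fold or more and no overlap between the 3 LH8 and the 3 LHR+ arrays. After 8 h of LH 486 probe sets were up-regulated, which is 0.89% of all tested, and 345 were down-regulated, which is 0.632%. A gene was then represented by its brightest probe set. Of 19775 genes, 168 (0.85%) met the rule as up-regulated and 116 (0.587%) as down-regulated. Another 253 genes were called only on a dimmer probe set and are not counted as called here. Of 143 called genes with over 1 probe set, 48 had another probe set called the same way and none the opposite way. Bright probe sets were mostly called higher, with 101 higher and 30 lower among the brightest 13653 probe sets, while the dimmest 13654 held 89 and 77. With groups of 3 the smallest two-sided p of an exact permutation test is 0.1, and each p thus rests on the variance model. Without the fold threshold the directions were nearly even, since an adjusted p under 0.1 was reached by 702 genes that were higher (3.55%) and 721 that were lower (3.65%). Adding 16 in place of 1 to each intensity left 292 probe sets higher and 116 lower.

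**Figure D1:**
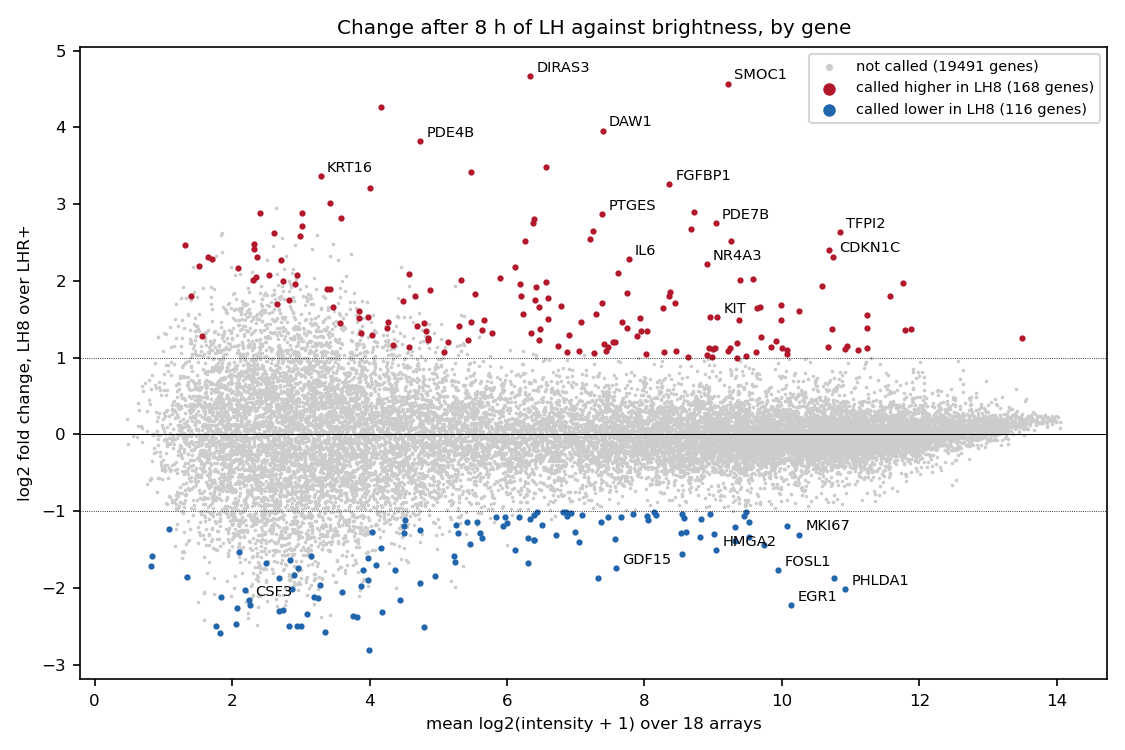
Each point is 1 of 19775 genes by its brightest probe set, with the mean log2(intensity + 1) over 18 arrays on the x axis and the log2 fold change of LH8 over LHR+ on the y axis. The 168 genes called higher (red) reach 4.67 and, among those brighter than the median probe set, EGR1 at -2.22 lies farthest below 0 of the 116 called lower (blue).

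DIRAS3 had the highest log2 fold change among genes whose mean over the 18 arrays was above the median probe set. It is an imprinted Ras-family GTPase that restrains growth in ovarian epithelium. Its intensity was 383, 429 and 485 in LH8 arrays and 15.9, 15.8 and 16.1 in LHR+ arrays, which is a log2 fold change of 4.67 ± 0.49 (SE, adjusted p = 1.03e-04). Its LHR+ arrays were below the median probe set of 48.8, as were the LHR+ means of DMBT1, ZMAT4 and NPR3, so these genes passed the brightness filter through the arrays of other groups. SMOC1, a matricellular protein related to SPARC, had 2585, 2362 and 2297 in LH8 arrays and 94.6, 98.9 and 109 in LHR+ arrays. The log2 fold change of SMOC1 was 4.57 ± 0.12 (adjusted p = 2.04e-10), and its other probe set stood at 4.55. DAW1, a factor in the assembly of ciliary dynein, had 914, 896 and 872 in LH8 arrays against 86.6, 43.3 and 48.2 in LHR+ arrays (3.96 ± 0.30). For each of these genes the groups lay far apart and the LH8 arrays were close to each other.

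Several of the other large rises were those of secreted proteins. FGFBP1, which releases fibroblast growth factors from the matrix, measured 878, 851 and 999 in LH8 arrays and 93.5, 102 and 87.1 in LHR+ arrays (3.26 ± 0.16, adjusted p = 1.21e-07). DMBT1, a scavenger receptor glycoprotein of mucosal surfaces, had 372, 331 and 306 in LH8 arrays and 43.4, 17.9 and 31.5 in LHR+ arrays. CRISPLD2, another secreted protein, rose by 2.90 ± 0.14 on its brighter probe set and showed 0.29 on the other. CBLN2, a cerebellin that organizes synapses, had 1135, 1045 and 1316 in LH8 arrays against 218, 198 and 137 in LHR+ arrays. Receptors and enzymes of local mediators were also present. NPR3, the clearance receptor of natriuretic peptides, rose by 2.75 ± 0.19 and PTGES, the enzyme that makes prostaglandin E2, by 2.87 ± 0.20. The zinc finger gene ZMAT4 rose by 2.80 ± 0.31 and the long noncoding RNA LINC02532 by 2.64 ± 0.21, with 3 of its 4 probe sets called. No LH8 array of these genes overlapped with an LHR+ array, which holds for every called gene by the rule.

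The largest falls included transcription factors. EGR1, an immediate early zinc finger factor, had 288, 301 and 316 in LH8 arrays and 1445, 1368 and 1417 in LHR+ arrays (-2.22 ± 0.14, adjusted p = 8.52e-07). PHLDA1, a pleckstrin homology protein induced by growth factor signaling, had 696, 771 and 714 in LH8 arrays against 3470, 2760 and 2658 in LHR+ arrays, and 5 of its 6 probe sets were called lower. FOSL1, the AP-1 subunit also known as FRA1, had 651, 689 and 642 in LH8 arrays and 2282, 2365 and 2086 in LHR+ arrays (-1.76 ± 0.10). All 3 genes were far lower in LH8 than in LHR+, and their arrays varied little within a group.

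EMP1, a membrane glycoprotein of epithelia, fell by 1.87 on the log2 scale (SE 0.15), with 649, 683 and 974 in LH8 arrays and 3024, 2780 and 2509 in LHR+ arrays. It was called on 2 of 6 probe sets, and the highest stood at -1.13. HMGA2, an architectural chromatin protein of growing cells, had 191, 326 and 282 in LH8 arrays against 795, 709 and 715 in LHR+ arrays, but this was the only 1 of its 9 probe sets called, and they ranged from -1.50 to 0.83. NAV2 likewise had probe sets from -2.03 to 1.39, of which 2 of 6 were called lower. The remaining genes of this set were H1-3, a linker histone with near-identical relatives on the array, GDF15, NPAS3, LONRF3, CNIH3 and EVI2A. Their log2 fold changes lay between -1.87 and -1.40, although NPAS3 was called on only 1 of 9 probe sets and the highest stood at 0.68. GDF15, a stress-induced relative of TGF-beta, had 111, 96.5 and 49.0 in LH8 arrays against 221, 347 and 262 in LHR+ arrays. Without LH8 replicate 3 GDF15 was not called (-1.38, adjusted p = 0.103 in limma).

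**Figure D2:**
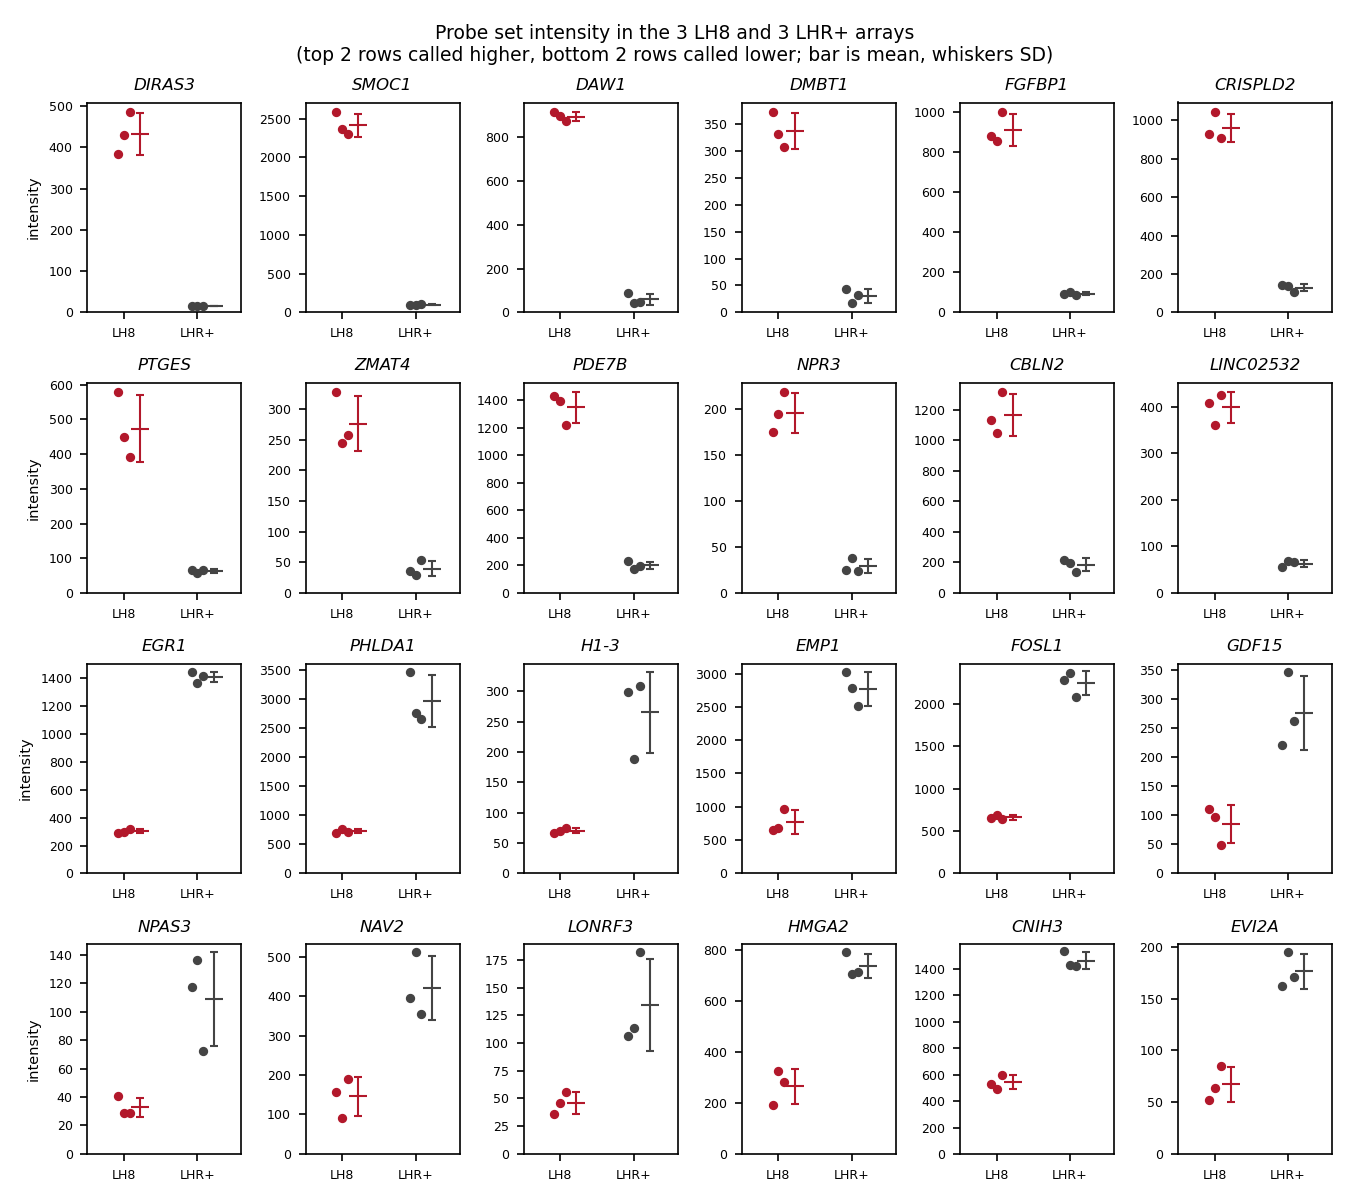
Probe set intensity (linear, y axis from 0) of the 12 genes with the largest rise (top 2 rows) and the 12 with the largest fall (bottom 2 rows) among bright genes, with 3 LH8 arrays on the left and 3 LHR+ arrays on the right of each panel. Points are arrays, bars the mean and whiskers the SD, and the groups are apart in all 24 panels.

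Components of cAMP signaling were examined next, since they lie directly behind the receptor. Of 17 cyclic nucleotide phosphodiesterases, the enzymes that break down cAMP and cGMP, 3 met the rule upwards and 1 downwards. The median of the list was 0.15 against -0.01 over all genes. For this list and those below, the shares over all genes were 0.85% called higher and 0.587% called lower. PDE7B, which is specific for cAMP, had 1427, 1397 and 1220 in LH8 arrays and 229, 177 and 194 in LHR+ arrays (2.75 ± 0.18, adjusted p = 1.51e-06). PDE4D, a cAMP-specific enzyme known to be induced and activated by protein kinase A, had 1645, 1932 and 1713 in LH8 arrays against 655, 564 and 523 in LHR+ arrays (1.60 ± 0.13), and 3 of its 6 probe sets were called higher. PDE4B showed 57.7, 56.3 and 95.4 in LH8 arrays and 2.08, 15.3 and 1.32 in LHR+ arrays, where the LHR+ values are near the floor. Its log2 fold change was 3.82 ± 0.61, and 1 of its 3 probe sets was called. PDE5A, which is specific for cGMP, was lower with 305, 292 and 271 in LH8 arrays and 765, 731 and 787 in LHR+ arrays (-1.39 ± 0.13), although only 1 of its 8 probe sets was called and they ranged from -1.61 to 0.70. Thus the called phosphodiesterases of cAMP were higher and the called one of cGMP was lower.

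Among 24 genes of cAMP synthesis and protein kinase A only AKAP12 was called. AKAP12, a scaffold that holds protein kinase A and other kinases at the membrane, had 3822, 4341 and 3736 in LH8 arrays and 1166, 1145 and 1085 in LHR+ arrays (1.81 ± 0.13, adjusted p = 3.43e-06). Its brightest probe set and 3 more of 5 were called higher, and the lowest stood at -1.12. The catalytic subunit PRKACA was at -0.09 and the regulatory subunit PRKAR1A at 0.16, and GNAS, which encodes Gs alpha, was at 0.07. None of 24 regulators of G protein signaling, receptor kinases and arrestins was called in limma or in the methods' analysis of variance, and their median was -0.15. An unadjusted p under 0.05 was reached by 6 of them, and by 8630 of all 54613 probe sets, which include dimmer and unannotated ones. RGS2, a regulator of Gq known to respond to cAMP, was at -0.05.

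Promoter sequences of RefSeq on GRCh38.p14 were searched in the 250 bases before each start for the cAMP response element TGACGTCA, which reads the same on both strands, and for its shorter form TGACG on either strand, which every full element contains. A promoter was at hand for 71 of the 107 genes called higher and 43 of the 57 called lower that were brighter than the median probe set. The full element was present in 4 of the 71 (5.63%), in 0 of the 43 and in 3.4% of all genes brighter than the median, while the short form was present in 39.4%, 23.3% and 36.0%. In all promoters of the table the shares were 2.03% and 24.9%. A match describes the sequence and does not show that CREB binds there. The 4 genes with a full element were PDE7B and, chosen after their values were seen, DIO2, MCAM and AVPI1. Their stretches around the element are shown because the element is the sequence through which protein kinase A is known to act, and the capitals mark it. The sequences of NR4A3 and IL6, which are described below, are shown for short forms, in capitals. NR4A3 holds a further TGACG 25 bases before the start, outside the stretch shown. Genes called lower, such as EGR1 and LONRF3, hold short forms as well.
PDE7B, chr6:135851518-135851581, plus strand, 183 to 120 bases before the start: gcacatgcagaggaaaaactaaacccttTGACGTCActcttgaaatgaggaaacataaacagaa
DIO2, chr14:80212239-80212302, minus strand, 124 to 61 bases before 1 of 2 starts: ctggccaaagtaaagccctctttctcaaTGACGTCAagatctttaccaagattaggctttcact
MCAM, chr11:119317131-119317190, minus strand, 60 to 1 bases before the start: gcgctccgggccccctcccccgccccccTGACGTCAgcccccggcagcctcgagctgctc
AVPI1, chr10:97687448-97687491, minus strand, 250 to 207 bases before the start: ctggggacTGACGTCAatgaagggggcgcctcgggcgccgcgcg
NR4A3, chr9:99821766-99821816, plus strand, 119 to 69 bases before the start: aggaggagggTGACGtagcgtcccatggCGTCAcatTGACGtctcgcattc
IL6, chr7:22726975-22727052, plus strand, 225 to 148 bases before the start: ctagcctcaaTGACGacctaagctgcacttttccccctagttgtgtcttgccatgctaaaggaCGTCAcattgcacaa

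DIO2, MCAM and AVPI1 were taken from the genes called higher, so their direction and the separation of their groups were fixed by the choice, and their values are given as a description. DIO2, the deiodinase that activates thyroid hormone and a known cAMP-responsive gene, averaged 4628 ± 160 in LH8 and 1570 ± 102 in LHR+ (SD, n = 3 each), a log2 fold change of 1.56 ± 0.10 (SE). MCAM, a cell adhesion molecule of the immunoglobulin family, averaged 219 ± 64.9 in LH8 and 36.3 ± 5.12 in LHR+, and its other probe set stood at 0.22 on the log2 scale. AVPI1, named for its induction by vasopressin, averaged 3243 ± 341 in LH8 and 1231 ± 58.9 in LHR+.

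Called immediate early genes went in both directions after 8 h. Of 31 measured genes of this kind and CREB targets, 3 were up-regulated and 2 down-regulated, with a median of 0.14, and EGR1 and FOSL1 described above were those down. NR4A3, an orphan nuclear receptor with the short elements shown above and called on 1 of 3 probe sets, had 689, 671 and 633 in LH8 arrays and 136, 112 and 189 in LHR+ arrays (2.22 ± 0.24, adjusted p = 1.12e-04). NR4A2, its close relative, had 162, 217 and 245 in LH8 arrays against 43.5, 72.1 and 57.9 in LHR+ arrays (1.84 ± 0.22). FOSB was dim, with 34.7, 32.0 and 39.4 in LH8 arrays and 11.2, 14.9 and 2.74 in LHR+ arrays. Other members moved less. FOS was at 0.98 ± 0.57 (adjusted p = 0.456), NR4A1 at 0.66, and CREM, whose short product ICER ends cAMP responses, at 0.78 with an adjusted p under 0.1 but a fold change under 2. JUN at -0.07 and MYC at -0.36 were not called. Family members thus stood on both sides of 0, the NR4A genes above and EGR1 below.

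Of 18 feedback regulators of MAP kinase signaling 1 was up-regulated and 1 down-regulated, with a median of -0.19. PTPRR, a tyrosine phosphatase that inactivates ERK, had 540, 571 and 680 in LH8 arrays and 180, 168 and 146 in LHR+ arrays (1.85 ± 0.16, adjusted p = 1.39e-05), with both its probe sets called. DUSP6, the ERK-specific phosphatase whose message follows ERK activity, had 66.9, 61.0 and 95.0 in LH8 arrays against 202, 161 and 100 in LHR+ arrays. The LH8 and LHR+ arrays of DUSP6 nearly touch, and it was no longer called with equal array medians, with quantile normalization, with 16 added, or without LH8 replicate 1 or 2 or LHR+ replicate 1 or 2 (-0.95 to -0.79). DUSP5 at -0.70 and SPRY2 at -0.54 had an adjusted p under 0.1 without the fold.

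The ovulatory program is the set of genes that LH turns on in granulosa cells, and its members AREG and RUNX1 had no probe set of their own. Over all genes 0.85% were called higher and 0.587% lower. Of 18 measured 3 were up-regulated, PTGES with 579, 448 and 391 in LH8 arrays against 66.3, 56.8 and 66.6 in LHR+ arrays, EDN2 and ADAMTS9. EDN2, the endothelin made at ovulation, had 249, 240 and 289 in LH8 arrays and 91.2, 134 and 146 in LHR+ arrays (1.09 ± 0.26), and was not called with 16 added or without LH8 replicate 3 (1.01) or LHR+ replicate 1 (0.88). ADAMTS9, a matrix protease, had 1203, 1154 and 1217 in LH8 arrays and 616, 614 and 533 in LHR+ arrays (1.02 ± 0.15), on 1 of 4 probe sets, and lost its call without LHR+ replicate 3 (0.95). PTGER4, a receptor of prostaglandin E2, was lower with 41.1, 32.9 and 33.4 in LH8 arrays and 99.4, 99.1 and 78.8 in LHR+ arrays. PTGES was called on 1 of its 2 probe sets, and the other stood at 0.22. PTGS2, the cyclooxygenase of the ovulatory follicle, was at 0.69 and the hyaluronan synthase HAS2 at 1.47, both without a call. None of 19 steroidogenic genes was called in limma or in the analysis of variance, and 2 had an unadjusted p under 0.05. STAR, which delivers cholesterol to the mitochondrion, averaged 17.1 in LH8 and 16.9 in LHR+, and CYP19A1, the aromatase, 13.9 in LH8 and 15.1 in LHR+. None of 14 ERBB receptors and EGF-like ligands was called (4 had an unadjusted p under 0.05), with HBEGF at 0.85 and ERBB2 at 0.46 having an adjusted p under 0.1 below the fold threshold.

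Several cytokine messages were among the called genes. Of 32 cytokines, chemokines and receptors, 5 were up-regulated and 2 down-regulated, and the median was 0.44. IL6, with the short elements shown above, had 232, 244 and 254 in LH8 arrays and 41.0, 50.3 and 57.0 in LHR+ arrays (2.29 ± 0.19, adjusted p = 1.21e-05). IL11, a cytokine that shares the receptor chain gp130 with IL6, had 320, 341 and 375 in LH8 arrays against 95.7, 62.8 and 83.4 in LHR+ arrays (2.10 ± 0.20) and was called on both probe sets. CCL20, a chemokine of dendritic cells and lymphocytes, was dim with 17.4, 17.5 and 26.7 in LH8 arrays and 0.716, 8.11 and 0.732 in LHR+ arrays. CSF3, a granulocyte growth factor, lay at the floor in LH8 arrays with 1.82, 1.15 and 1.31, and at 17.7, 8.23 and 6.31 in LHR+ arrays. Neither CCL20 nor CSF3 was called when 16 was added, while IL6 and IL11 were, and CCL20 was not called without LH8 replicate 3, LHR+ replicate 1 or LHR+ replicate 3 (2.41 to 2.62). CXCL8 at 0.98 and CXCL2 at 0.65 had an adjusted p under 0.1 only. None of 14 NF-kB feedback genes was called in limma or in the analysis of variance, 2 had an unadjusted p under 0.05, and NFKBIA, the inhibitor that NF-kB induces, stood at 0.27.

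Genes of mitosis were lower after 8 h of LH, mostly by less than the fold threshold. Of 44 measured G2/M genes 3 were down-regulated and none was up-regulated, and 34 of 44 had an adjusted p under 0.1 and lower intensity in LH8, where 3.65% of all genes did. In 39 of 44 every LH8 array was below every LHR+ array, where 13.6% of all genes were so separated and 12.4% were separated in the other direction. The median log2 fold change was -0.56 against -0.01 over all genes. MKI67, the proliferation marker Ki-67, had 942, 899 and 688 in LH8 arrays and 2172, 2178 and 1863 in LHR+ arrays (-1.30 ± 0.13, adjusted p = 7.36e-05), with all 4 probe sets called. BUB1, a kinase of the spindle checkpoint, had 234, 182 and 271 in LH8 arrays against 567, 509 and 584 in LHR+ arrays (-1.28 ± 0.14). It was called on 2 of 5 probe sets, and the highest stood at -0.12. SPC25, part of the kinetochore, had 222, 277 and 274 in LH8 arrays and 513, 510 and 617 in LHR+ arrays, and fell short of the fold threshold without LH8 replicate 1 (-0.98) or LHR+ replicate 3 (-0.99). Below the fold threshold were PLK1 at -0.83, CCNB2 at -0.86, CDC20 at -0.78 and CDK1 at -0.37. CDC25B at 0.03 and INCENP at 0.98 were the members above 0, neither with a call. At the other times the list's median was -0.09 in LH1, -1.04 in LH4 and -0.95 in LH20, against the same LHR+ arrays. At 8 h it stayed between -0.66 and -0.53 in all alternative settings, but only 6 members had an adjusted p under 0.1 when the 6 arrays were fitted alone and 24 did with equal array medians.

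Genes of DNA replication and G1/S lay near the centre of all genes. None of 39 was called in limma or in the analysis of variance, 9 had an unadjusted p under 0.05, the median was 0.08, 4 had an adjusted p under 0.1 and higher intensity, among them E2F1 at 0.58 and MCM6 at 0.43, and 1 had a lower intensity. Regulators of G1 changed singly, with 1 of 14 up and 1 down. CDKN1C, the cyclin-dependent kinase inhibitor p57, had 4076, 3918 and 3938 in LH8 arrays and 801, 852 and 744 in LHR+ arrays (2.32 ± 0.10, adjusted p = 5.77e-08), with 4 of 5 probe sets called. CCND1, cyclin D1, had 507, 561 and 375 in LH8 arrays against 1164, 1022 and 959 in LHR+ arrays (-1.14 ± 0.15), on 1 of 2 probe sets, and was not called without LH8 replicate 3 (-0.97). CDKN1A, the inhibitor p21, was at 0.17, and none of 18 p53 targets was called (3 had an unadjusted p under 0.05). Thus the inhibitor p57 rose while cyclin D1 fell. Of 25 BCL2 family and death receptor genes 1 was called, TNFSF10, the ligand TRAIL, with 53.7, 24.7 and 26.9 in LH8 arrays and 20.4, 18.0 and 4.73 in LHR+ arrays, at an adjusted p of 0.0942 in limma. TNFSF10 was not called with 16 added, with equal array medians, without any 1 of the LH8 replicates or without LHR+ replicate 3 (0.75 to 1.56). Its call was on 1 of 3 probe sets.

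**Figure D3:**
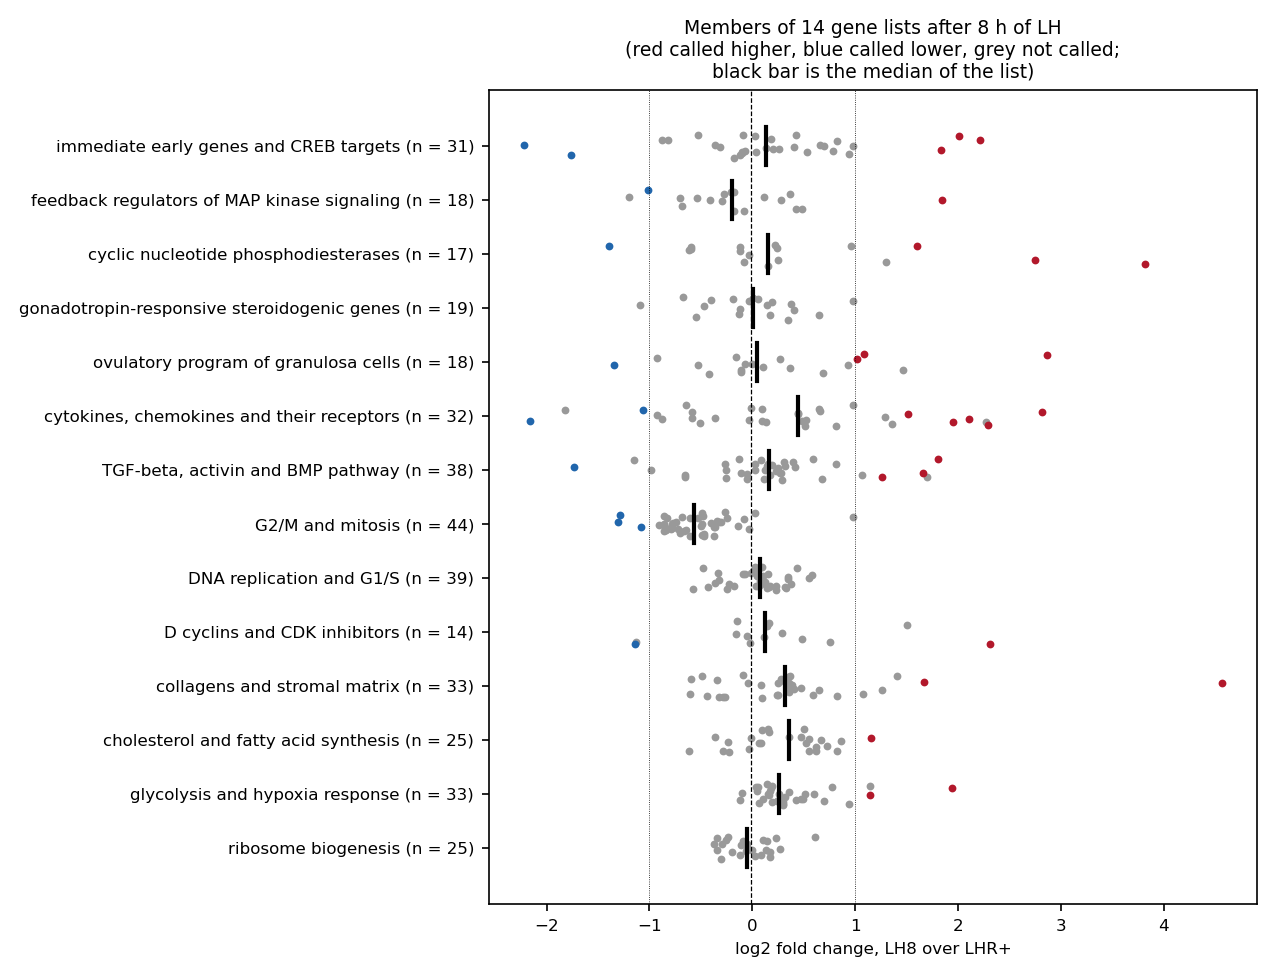
Log2 fold change of LH8 over LHR+ (x axis) of the members of 14 gene lists (rows), with red points called higher, blue called lower and grey not called. Black bars are the medians of the lists, dotted lines a fold of 2 and the dashed line the median of all genes, and in the G2/M list, with a median of -0.56, 2 of 44 members lie above 0.

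In the TGF-beta, activin and BMP pathway 3 of 38 genes were up-regulated, all of them inhibitors of differentiation that BMP signals are known to induce. ID4 had 340, 356 and 409 in LH8 arrays and 123, 88.2 and 104 in LHR+ arrays (1.81 ± 0.22), with 3 of its 5 probe sets called and the lowest at -0.53. ID3 had 929, 913 and 1016 in LH8 arrays against 344, 281 and 279 in LHR+ arrays (1.66 ± 0.20), and ID1 rose by 1.27 ± 0.16. ID2 was at 0.31 without a call. The ligands BMP2 at 0.23 and BMP4 at -0.65, and the inhibitory SMAD7 at -0.25, were not called, and GDF15 was the member down-regulated. Hence 3 ID genes were called and the BMP ligands named were not.

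Matrix and adhesion genes changed singly. Of 33 collagens and stromal matrix genes 2 were up-regulated, SMOC1 above and LUM, a small leucine-rich proteoglycan, with 55.1, 61.1 and 92.7 in LH8 arrays and 24.7, 15.8 and 22.4 in LHR+ arrays. The other probe set of LUM stood at -0.70 and was not called. The list's median was 0.32, and 8 had an adjusted p under 0.1, all of them higher, where 3.55% of all genes were. With the 6 arrays fitted alone 1 of the 33 had such a p. Of 27 integrins and laminins ITGB8, which activates latent TGF-beta, had 1507, 1556 and 1581 in LH8 arrays and 452, 538 and 459 in LHR+ arrays (1.68 ± 0.14), with 2 of its 5 probe sets called and the lowest at -0.71. ITGA2, a collagen receptor subunit, was lower with 28.4, 55.2 and 35.4 in LH8 arrays and 96.2, 70.4 and 84.0 in LHR+ arrays, and so was ITGA11 at intensities of 3.44 to 8.18 in LH8 and 15.3 to 21.2 in LHR+. Neither integrin alpha gene was called with 16 added. ITGA2 was also not called without LH8 replicate 1 (-0.89) or LHR+ replicate 1 (-0.99), and ITGA11 was not called without LH8 replicate 2 or 3 or without any 1 of the LHR+ replicates (-1.89 to -1.59). CDH6, a cadherin of the kidney and of ovarian carcinoma, had 2653, 2517 and 3025 in LH8 arrays against 1148, 1022 and 985 in LHR+ arrays (1.37 ± 0.12) and was called on all 6 probe sets. CDH1 at -0.37, CDH2 at 0.09 and VIM at 0.13 were not called, and SNAI1 at 1.00 had an adjusted p under 0.1. KRT16 was the only called gene of 28 keratins and junction genes, at 19.8, 49.7 and 13.9 in LH8 arrays and 1.50, 1.83 and 1.04 in LHR+ arrays, and lost the call without LH8 replicate 2 (2.85) and without LHR+ replicate 3 (3.23). None of 29 metalloproteinases, TIMPs and plasminogen activator genes was called (10 had an unadjusted p under 0.05). An adjusted p under 0.1 was reached by 7 that were higher, among them TIMP3 at 0.70, where 3.55% of all genes did so. It was reached by 2 that were lower, among them PLAU at -0.56, where 3.65% of all genes did so. In the alternative settings 2 to 7 members were higher with such a p.

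Part of the genes of sterol metabolism and glycolysis passed the adjusted p as higher in LH8, mostly without a call. Of 25 genes of cholesterol and fatty acid synthesis 12 had an adjusted p under 0.1 and all of these were higher, where 3.55% of all genes were, and the median was 0.36. INSIG1, which holds SREBP in the endoplasmic reticulum when sterols suffice, was the called member with 1914, 2295 and 2433 in LH8 arrays and 1000, 939 and 1034 in LHR+ arrays (1.15 ± 0.16). IDI1 at 0.86, HMGCS1 at 0.66 and SREBF2 at 0.62 were below the fold threshold, and so was INSIG2 at 0.83. With the 6 arrays fitted alone 3 of the 25 had an adjusted p under 0.1 and were higher. Of 33 glycolysis and hypoxia genes 10 had an adjusted p under 0.1 and were higher, where 3.55% of all genes were. The log2 fold change was above 0 in 31 of the 33 and in 48.7% of all genes, and the list's median was 0.26. With the 6 arrays fitted alone 1 of the 33 had such a p. CA12, a membrane carbonic anhydrase, had 2808, 2502 and 2658 in LH8 arrays against 800, 828 and 498 in LHR+ arrays (1.94 ± 0.18), with 6 of 7 probe sets called. EGLN3, the prolyl hydroxylase PHD3, had 377, 271 and 371 in LH8 arrays and 154, 166 and 136 in LHR+ arrays. HK2 at 0.94 and PDK1 at 0.70 had an adjusted p under 0.1 only, and VEGFA, a main target of hypoxia, was at 0.11. Quantile normalization lowered the list's median to 0.12. Of the 33 members 31 were brighter than the median probe set, while the share over all genes includes dim ones. GAPDH, itself a member, and ACTB were also higher in every LH8 array, at 0.19 and 0.21. Whether a shift of bright probe sets has a part in the list's values was not tested.

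Single members of other groups changed strongly. TFPI2, a serine protease inhibitor of the matrix, had 4250, 3880 and 4868 in LH8 arrays and 827, 648 and 617 in LHR+ arrays (2.64 ± 0.14, adjusted p = 2.96e-07). CD55, which protects cells from complement, had 4305, 4433 and 5198 in LH8 arrays and 1900, 1688 and 1801 in LHR+ arrays, and these were the called members of 23 complement and coagulation genes. AQP3, a channel for water and glycerol and the called member of 16 aquaporins and connexins, had 1232, 919 and 1237 in LH8 arrays against 283, 253 and 298 in LHR+ arrays (2.01 ± 0.15). It was called on 1 of 3 probe sets, and the lowest stood at 0.89. KIT, the receptor of stem cell factor, had 1039, 1148 and 1137 in LH8 arrays and 352, 415 and 381 in LHR+ arrays (1.53 ± 0.17). By brightest probe set KIT was the called one of 34 receptor tyrosine kinases, and on any probe set 5 of them were called. IGFBP1, a binding protein of insulin-like growth factors known to respond to cAMP, averaged 153 ± 18.8 in LH8 and 47.4 ± 0.746 in LHR+, on 1 of 2 probe sets. GALNT3, which starts O-glycosylation, rose by 1.30 ± 0.23 on 1 of 2 probe sets, with the other at -0.20.

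Down-regulated members of further lists were enzymes and receptors of adenosine and vitamin D. NT5E, the ecto-nucleotidase CD73 that makes adenosine, had 540, 485 and 388 in LH8 arrays against 1209, 1058 and 982 in LHR+ arrays (-1.21 ± 0.19), and ADORA2B, an adenosine receptor coupled to Gs, had 221, 243 and 250 in LH8 arrays and 557, 490 and 447 in LHR+ arrays, short of the fold threshold without LHR+ replicate 1 (-0.97). They were the 2 of 12 adenosine genes called, NT5E on 2 of its 4 probe sets, with the highest at -0.175. VDR, the vitamin D receptor and the called one of 28 nuclear receptors, averaged 63.6 ± 27.1 in LH8 and 139 ± 24.0 in LHR+. It lost the call without LH8 replicate 1 (-0.98) and without LHR+ replicate 3 (-1.04). Of its 4 probe sets 1 was called, and the highest stood at -0.13. Interferon-stimulated genes went in both directions, with 2 of 33 up and 1 down. ISG15, a ubiquitin-like modifier, had 745, 833 and 750 in LH8 arrays against 270, 286 and 248 in LHR+ arrays, and IFITM1 rose by 1.33 ± 0.22. IFIT2 had 40.5, 42.4 and 43.1 in LH8 arrays and 114, 103 and 116 in LHR+ arrays, with 0.07 on its other probe set, and its list as a whole had a median of -0.06.

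The 8 h values were set against the other LH times by direct contrasts, in which the LHR+ arrays cancel. By brightest probe set 1.65% of genes were called in LH8/LH1, 1.08% in LH8/LH4 and 4.29% in LH20/LH8. The fold changes against LHR+ at the several times share the LHR+ arrays and are given only side by side. The genes called higher and lower against LHR+ numbered 57 and 6 in LH1, 233 and 158 in LH4, 168 and 116 in LH8, and 728 and 736 in LH20. The log2 fold change of EGR1 was 2.75 in LH1, -1.89 in LH4, -2.22 in LH8 and -1.45 in LH20, and its difference LH8/LH1 was -4.97 (adjusted p = 2.16e-10). PTGER4 went the same way, with 1.31 in LH1, -1.01 in LH4, -1.34 in LH8 and -1.06 in LH20. Both genes were thus called in opposite directions at 1 h and 8 h.

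A second group was lower in LH8 than in LH4. The log2 fold change of NR4A3 was 2.38 in LH1, 4.70 in LH4, 2.22 in LH8 and 1.81 in LH20, with a difference LH8/LH4 of -2.48 (adjusted p = 1.27e-04). IL6 stood at 5.06, 4.54, 2.29 and 1.38 at these times, IL11 at 0.60, 3.67, 2.10 and 0.80, and PDE4D at 0.73, 2.96, 1.60 and 1.36. Each of these differed between LH8 and LH4 by the call rule. DAW1, FGFBP1, CRISPLD2 and ZMAT4 were lower in LH20 than in LH8 by the call rule. The log2 fold change of DAW1 was 3.42 in LH4, 3.96 in LH8 and 0.91 in LH20 (LH20/LH8 -3.05, adjusted p = 2.94e-05), and that of CRISPLD2 was 3.42, 2.90 and 0.44. ZMAT4 was highest at 8 h, with a difference of 1.30 from LH4 and -1.92 in LH20/LH8, and so was KIF26B, a kinesin, with 1.59 and -1.90. Against LHR+ KIF26B was called on 1 of its 3 probe sets.

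Further genes were higher in LH8 than in LH4. ZNF114, a zinc finger gene, had 2577, 2404 and 2677 in LH8 arrays and 858, 1038 and 839 in LHR+ arrays, and its log2 fold changes were -0.69 in LH1, -0.78 in LH4, 1.49 in LH8 and 2.22 in LH20. The difference LH8/LH4 of ZNF114, 2.27 (adjusted p = 1.03e-06), passed the call rule. KIT was at -0.04 at 4 h and 1.53 at 8 h, a difference of 1.57, and MIR210HG, the host transcript of the hypoxia-induced miR-210, was at -0.37 and 1.35. EGLN3, PTPRR and GALNT3 were called in LH8/LH4 in the same direction. Downwards, PHLDA1 was at -0.64 at 4 h and -2.02 at 8 h and NPAS3 at -0.40 and -1.68. Genes called higher in LH20 than in LH8 included TNFSF10, with 5.13 in LH20/LH8, ANXA10, an annexin, with 2.63, KCNJ16, a potassium channel, with 2.51, and CA12 and AQP3. ID3 and ID4 were lower in LH8 than in LH4 by 0.99 and 0.95 on the log2 scale, short of the fold threshold (adjusted p = 0.0175 and 0.0394), and higher in LH20 than in LH8 by 1.75 and 1.84. HMGA2, NAV2, EVI2A and IFIT2, lower at 8 h, were higher again in LH20/LH8 by 1.24 to 1.42. SMOC1, CDKN1C and TFPI2, in contrast, were high from 4 h on, and no call separated 8 h from 4 h or from 20 h for them. Below the fold threshold SMOC1 still rose, by 0.60 in LH8/LH4 and 0.94 in LH20/LH8 (adjusted p = 0.014 and 1.7e-04 in limma). CDKN1C was at -0.07 and 0.44 in these contrasts (adjusted p = 0.811 and 0.011), and TFPI2 at 0.31 and -0.20 (adjusted p = 0.362 and 0.451).

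**Figure D4:**
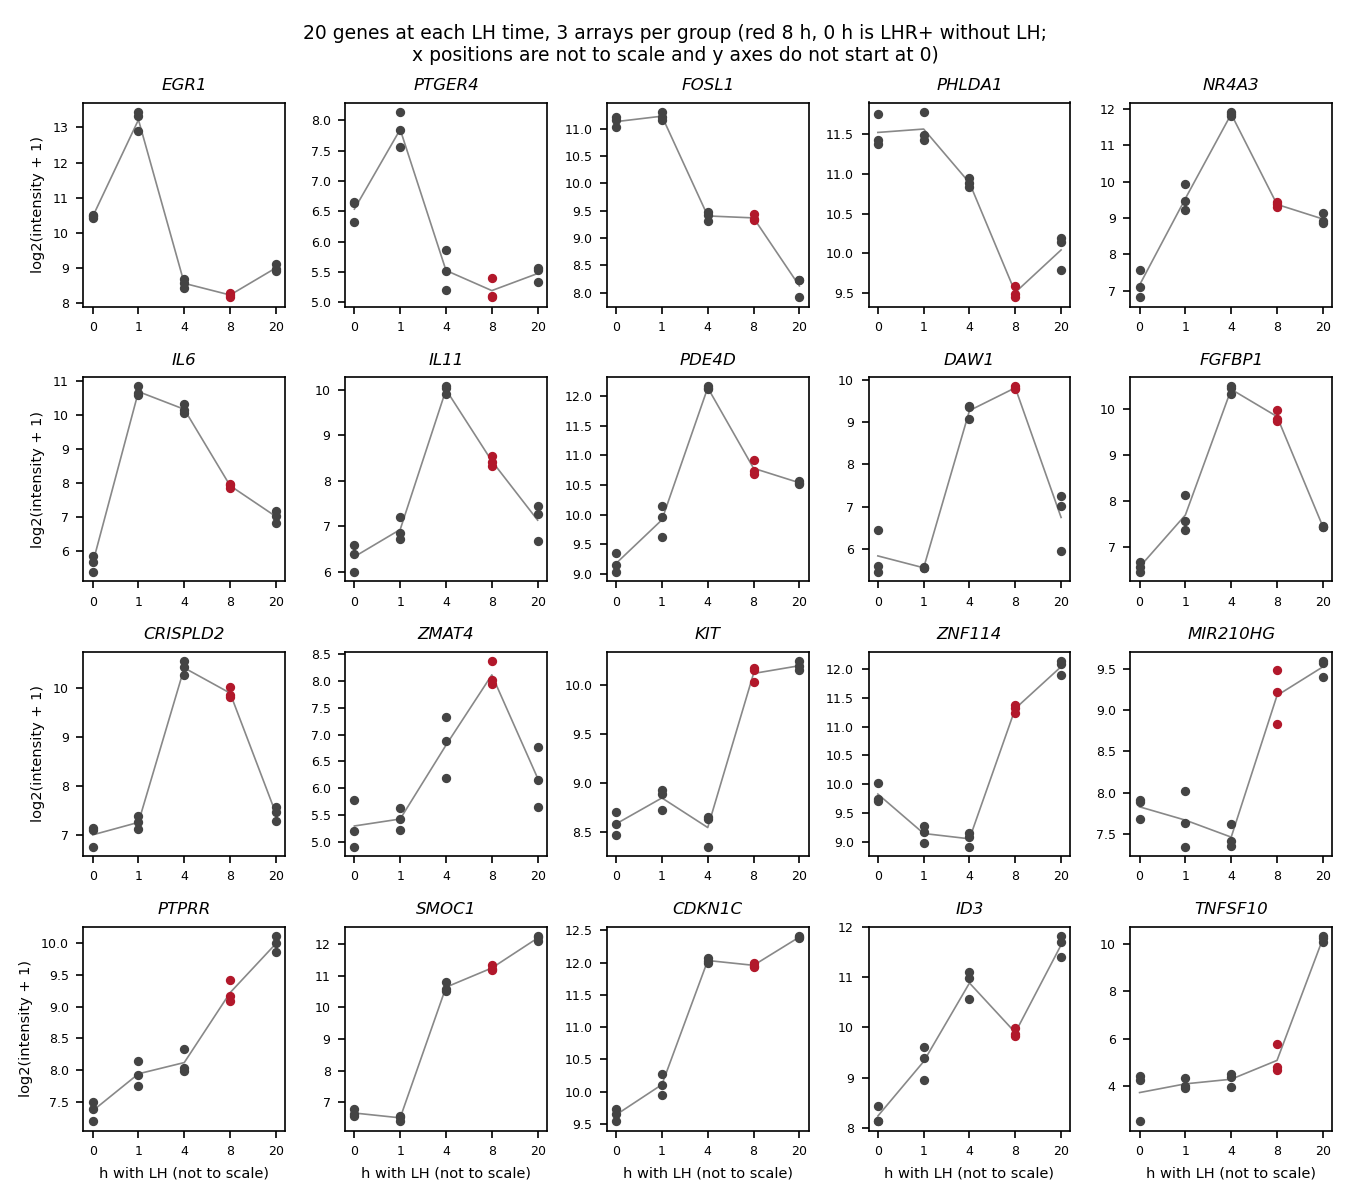
Log2(intensity + 1) on the y axis of 20 genes in the arrays without LH (0 h, LHR+) and after 1, 4, 8 and 20 h of LH, at positions not to scale on the x axis, with 3 points per group and a line through the means. The 8 h arrays are red: EGR1 and PTGER4 lie below the 0 h level after a peak at 1 h, NR4A3, IL6, IL11 and PDE4D are past their peak, and KIT, ZNF114 and MIR210HG have left the level of 4 h.

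An unadjusted p under 0.05 was reached by 107 of 407 genes in gene lists without a call and by 8630 of all 54613 probe sets. The latter include dimmer and unannotated probe sets, so these shares are not of like sets and no excess is read from them. By brightest probe set 17 of the 42 gene lists had no called member after 8 h of LH in limma or in the analysis of variance. Among these were the Notch pathway (20 genes), the Wnt pathway (34), the circadian clock (17), the Krueppel-like factors (16), growth factor ligands (29), amino acid response genes and tRNA synthetases (35), chaperones of the endoplasmic reticulum (25), ribosome biogenesis (25), NRF2 targets (18) and potassium and calcium channels (36). Medians of lists with no call lay between -0.17 and 0.11. On any probe set some of these lists had called genes, among them 3 growth factor ligands and 2 circadian clock genes. With the replicate block 1 Notch gene was called lower. Single members with an adjusted p under 0.1 but no call included HES1 at 0.83, a Notch target, WNT5A at 0.82, NPAS2 at -0.95, a clock factor, and BDNF at 0.73. Counted without repeats, the 42 lists held 1003 measured genes, of which 37 were up-regulated and 18 down-regulated. Over all genes 0.85% were up-regulated and 0.587% down-regulated, and the lists were chosen with earlier results of these data known.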

How the data were processed

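RNA of 18 samples, 3 in each of 6 groups, was amplified with the NuGEN Ovation V2 kit and hybridised to Affymetrix U133 Plus2 arrays. The deposited values are probe set intensities on a linear scale that the authors summarised. The labels name PLIER, with no version, while the study's methods name RMA, and the values themselves do not settle which was used. The number of arrays, not a read depth, limits the precision. The design text calls the replicates independent.

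From these intensities, log2(intensity + 1) was taken for 54613 probe sets after 62 control probe sets were left out. The values of all 18 arrays were fitted with 1 mean per group in limma 3.58.1 (R 4.3.3) with 12 residual and 1.37 prior degrees of freedom, and p-values were adjusted by Benjamini-Hochberg over all probe sets. The call rule (p under 0.05, adjusted p under 0.1, fold of at least 2, groups separated) takes its thresholds from the study's methods. The fit was tested on simulated data.

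Each gene was represented by the brightest probe set that lists its symbol alone, with symbols from the platform annotation, in which 41091 probe sets have 1 symbol, 1801 several and 11721 none. Genes were named as the 12 called higher and 12 called lower with the largest change above the median probe set, up to 4 called members of each list with up to 3 uncalled members that define it, up to 6 genes for each difference between times, and LHCGR, GAPDH and ACTB. The gene lists, members and tests were chosen with earlier results of these data known. In these lists 80 symbols had no probe set of their own. Alternatives were another added constant, a filter on dim probe sets, 2 further normalizations, the 6 arrays alone, the replicate block, fewer probe sets, other tests and thresholds, and leaving out each replicate.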

Additional observations from a re-analysis of the deposited data

Results flagged for a closer look

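For the genes given here the intensity after 8 h of LH differed from that at another LH time, by limma on the difference itself with the same call rule. Time with LH and time in culture cannot be told apart in these contrasts either. Values are log2 differences.

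Between 8 h and 1 h the direction turned for EGR1 (-4.97) and PTGER4 (-2.66). From 4 h to 8 h the intensity was higher in LH8 for ZMAT4 (1.30), PTPRR (1.09), EGLN3 (1.35), KIT (1.57), GALNT3 (1.14), ZNF114 (2.27), MIR210HG (1.71) and KIF26B (1.59). It was lower in LH8 than in LH4 for PHLDA1 (-1.38), NPAS3 (-1.27), NR4A3 (-2.48), FOSB (-2.14), NR4A2 (-1.92), PDE4D (-1.36), IL6 (-2.25) and IL11 (-1.57).

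In LH20 the intensity was lower than in LH8 for DIRAS3 (-1.40), DAW1 (-3.05), FGFBP1 (-2.38), CRISPLD2 (-2.46), ZMAT4 (-1.92), FOSL1 (-1.25), EDN2 (-2.44), CCL20 (-3.58), IL11 (-1.30), CCND1 (-1.48), NT5E (-1.80) and KIF26B (-1.90). It was higher in LH20 than in LH8 for NAV2 (1.41), HMGA2 (1.42), EVI2A (1.38), PDE4B (1.75), CSF3 (1.61), ID4 (1.84), ID3 (1.75), TNFSF10 (5.13), LUM (1.70), ITGA11 (2.01), ITGA2 (1.99), CA12 (1.58), IFIT2 (1.24), IFITM1 (1.54), AQP3 (1.36), ANXA10 (2.63) and KCNJ16 (2.51).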

How the results depend on the processing

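The 486 probe sets called higher and 345 called lower became 292 and 116 with 16 added before log2, 280 and 159 with dim probe sets left out, 315 and 174 with the 6 arrays fitted alone, and 198 and 144 with 1 probe set per gene. They became 323 and 257 without probe sets whose names end in _x_at or _s_at, and 1563 and 1571 without the fold threshold. Leaving out 1 replicate gave 423 to 482 higher and 249 to 393 lower. None of the 78 called named genes changed direction in any of these settings, nor did LHCGR, GAPDH or ACTB. For the called genes the required separation fixed this outcome when 16 was added or a replicate was left out. Most other settings reuse the same fold changes, so the kept direction of called genes is no test of them. The direction of the other uncalled genes named in the text was not followed through the settings. The 78 called named genes had 1217 values over the 16 settings that could end a call, and 62 of these lost it. With the 6 arrays alone 21 of 78 named calls were lost, those of GDF15, NPAS3, NAV2, LONRF3, FOSB, DUSP6, PDE4B, EDN2, CCL20, CSF3, CCND1, TNFSF10, LUM, ITGA11, ITGA2, EGLN3, VDR, IFITM1, GALNT3, KIF26B and ANXA10. That fit has fewer arrays, and no other cause was tested. The replicate block gave 485 higher and 354 lower and removed the call of ITGA11. Same-numbered LH8 and LHR+ arrays had deviations correlated at -0.0873, 0.153 and 0.141, so the numbers were not taken as pairs. Near the floor of intensity a fold change rests on few units of signal, which concerns PDE4B, CCL20, CSF3, KRT16 and ITGA11.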
